A study of Homo sapiens with 28 samples.

Results

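The regions described here are sites of chromatin with more ATAC-seq signal after lenalidomide in all treated myeloma lines, by however little in a single line. The assay was ATAC-seq: a transposase cuts open DNA and tags it for sequencing, so that a region with more counts was cut more often. Of 154985 autosomal regions, 59431 had a mean of 3 or more CPM (a region's count scaled to a common total per library) in the 12 paired libraries, and 1175 of these were selected on their measured values: a positive lenalidomide minus control difference of log2(CPM + 1) in all 6 pairs and a mean difference of 0.7 or more. These 1175 are called opened regions below and the 59431 background regions. They made up 1.98% of the background regions. The same limits turned downwards kept 490 regions. At any size of difference, 2585 background regions rose in all 6 pairs and 2400 fell in all 6. Because the opened regions were chosen by these differences, the size and direction of their response are a description, with no test.

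The 6 paired lines were Karpas620, KMS27, L363, MM1S, OPM2 and RPMI8226, all established human myeloma lines, each with 1 untreated library (control) and 1 library from cells collected on day 3 of lenalidomide at 10 µM. The labels give no collection day for the controls, so equal time in culture within a pair could not be checked. A further 16 myeloma lines had 1 untreated library each and took no part in the choice. Every line was assayed once per condition, so cell lines are the units, and nothing measures the error within a line. All 12 paired libraries came from bulk cells, in which more cells with an open site and a more open site in each cell cannot be told apart.

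Lenalidomide binds cereblon, the substrate receptor of a ubiquitin ligase, and redirects the ligase to the zinc finger transcription factors Ikaros (IKZF1) and Aiolos (IKZF3), which are then degraded. Ikaros factors bind a short GGGAA core and can both activate and silence genes in lymphoid cells, and myeloma cells depend on them together with IRF4. ETS, IRF, RUNX and MEF2 factors bind many of the same lymphoid enhancers.

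The lines carried the accessibility pattern of plasma cells. The promoter regions of 8 of 9 plasma cell marker genes, including SDC1, IRF4 and POU2AF1, had a called peak in 11 or more of the 12 paired libraries, and the exception was SLAMF7, with a peak in 2. Of 6 T cell markers, 2 had a promoter region among the merged regions, at mean levels of 1.04 and 1.34 CPM, and of 6 myeloid markers 3 had one, at 0.792 to 3.16 CPM. Counts per library totalled 1916890 to 2964712 in controls and 2168680 to 4248017 after lenalidomide. In RPMI8226 the totals differed most within a pair, 2117764 against 4248017. Each lenalidomide library resembled the control of its own line most closely, and no pair of the 28 libraries held identical counts.

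The sequences of 6 of the 12 opened regions with the largest mean change are printed first. Distal opened regions differed from distal background regions as a whole in short letter patterns. The 6 were picked to show such matches, and 5 of the 6 hold one. Each is the central 200 bases of a region on the plus strand of GRCh37, in lower case, with matches to 4 patterns in capitals. The patterns are the Ikaros core TGGGAA, the RUNX core TGTGGTT, the ETS-IRF composite (GGAA, 1 base of any kind, TGAAA) and the MEF2 motif, each on either strand.
upstream of PHBP6, chr7:74617567-74617766: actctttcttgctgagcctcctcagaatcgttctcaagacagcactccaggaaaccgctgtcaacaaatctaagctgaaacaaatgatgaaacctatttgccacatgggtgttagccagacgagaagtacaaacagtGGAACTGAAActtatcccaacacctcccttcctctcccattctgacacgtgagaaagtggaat
ST14 intron, chr11:130048544-130048743: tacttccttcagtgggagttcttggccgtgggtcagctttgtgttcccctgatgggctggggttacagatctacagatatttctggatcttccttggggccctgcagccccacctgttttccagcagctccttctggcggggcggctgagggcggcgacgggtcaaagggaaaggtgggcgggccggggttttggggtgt
ATXN1 intron, chr6:16636318-16636517: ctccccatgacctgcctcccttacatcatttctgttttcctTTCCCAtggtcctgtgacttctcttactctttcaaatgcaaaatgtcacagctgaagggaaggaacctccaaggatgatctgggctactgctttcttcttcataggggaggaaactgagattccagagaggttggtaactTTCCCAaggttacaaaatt
SH3RF2 intron, chr5:145396660-145396859: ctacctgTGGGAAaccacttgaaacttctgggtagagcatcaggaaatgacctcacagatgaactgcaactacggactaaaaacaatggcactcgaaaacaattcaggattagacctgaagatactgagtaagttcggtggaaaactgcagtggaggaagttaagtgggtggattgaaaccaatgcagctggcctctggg
LINC02507 intron, nearest TMEM184C, chr4:148499114-148499313: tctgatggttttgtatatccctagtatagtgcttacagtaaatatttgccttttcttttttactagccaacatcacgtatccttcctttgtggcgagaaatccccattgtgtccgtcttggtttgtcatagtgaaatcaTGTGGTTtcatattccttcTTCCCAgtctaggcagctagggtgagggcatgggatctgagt
ACOXL intron, nearest BCL2L11, chr2:111829372-111829571: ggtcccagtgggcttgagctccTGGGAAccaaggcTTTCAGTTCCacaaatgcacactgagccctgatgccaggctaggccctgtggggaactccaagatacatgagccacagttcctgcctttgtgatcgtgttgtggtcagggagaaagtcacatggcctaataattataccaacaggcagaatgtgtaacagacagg
The region near ATXN1 held 2 Ikaros cores and that near SH3RF2 held 1. The region upstream of BCL2L11 held an Ikaros core and an ETS-IRF composite, and that near TMEM184C an Ikaros core and a RUNX core. The PHBP6 region held an ETS-IRF composite, and its twin upstream of PHBP5, also among the 12, carried the same element. The ST14 region is shown as the second largest change and held none of the 4 patterns in this window. Over all 12 such windows, 6 held at least 1 of the patterns and 6 held none, those at ST14, PICALM, ATP10B, RNF187, PJA2 and TIFAB. The PHBP6 and PHBP5 windows, copies of each other, are both among the 6 with a match. Of distal background regions 27.7% held at least 1 of the patterns.

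The opened regions moved by different amounts in the 6 lines. Their median difference was 0.73 in Karpas620, 1.11 in KMS27, 1.22 in L363, 1.02 in MM1S, 1.19 in OPM2 and 0.55 in RPMI8226, where the background regions had medians between -0.05 and 0.02. Over all opened regions the mean difference had a median of 0.97 and a maximum of 2.31, and 538 had a mean difference of 1 or more. RPMI8226 gave the smallest of the 6 differences in 422 regions and Karpas620 in 270, whereas OPM2 gave the largest in 329 and L363 in 305. A difference of 1 or more was reached in 4 or more lines by 313 regions and in all 6 lines by 14. The smallest of a region's 6 differences had a median of 0.29, and 80 regions had 0.7 or more in all 6 lines. With 1 library per condition, a difference near 0 does not show that a region opened in that line.

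**Figure D1:**
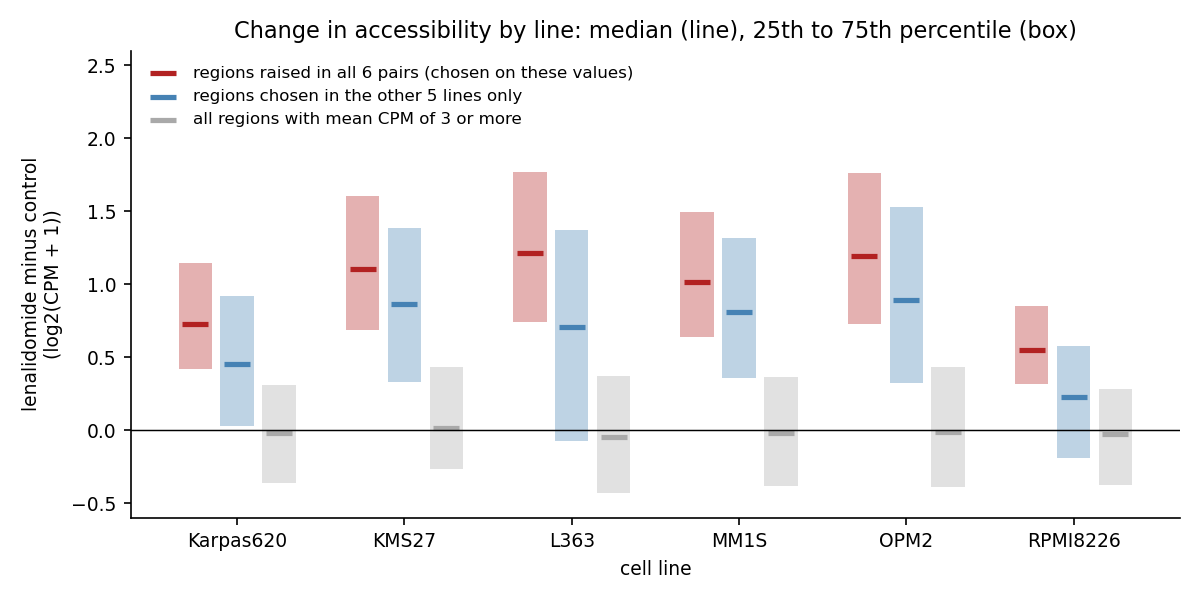
Lenalidomide minus control difference of log2(CPM + 1) (y axis) in each line (x axis), with medians as short lines and the 25th to 75th percentiles as boxes. Red, the 1175 opened regions, chosen on these values; blue, regions chosen from the other 5 lines alone; grey, background regions. The blue median is above the grey one in each line, lowest in RPMI8226 at 0.23 and highest in OPM2 at 0.89.

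To measure the response in libraries that had no part in the choice, the same limits were applied to 5 lines and the difference was read in the sixth. The left-out medians were 0.45 in Karpas620 over 1636 regions, 0.86 in KMS27 over 1325, 0.71 in L363 over 1503, 0.81 in MM1S over 1309, 0.89 in OPM2 over 1250 and 0.23 in RPMI8226 over 1967. The left-out change was thus smaller than the change of the regions chosen with that line, in all 6 lines, and it was above 0 at the median in all of them. The share of regions above 0 was 76.0% in Karpas620 against 48.5% of all regions at the same level, 89.7% in KMS27 against 57%, 73.6% in L363 against 45.7%, 89.7% in MM1S against 48%, 86.7% in OPM2 against 48.9% and 62.5% in RPMI8226 against 43.8%. RPMI8226, the line that differed most in depth within its pair, responded least, and the part of depth in this was not tested. Drawing counts down to equal totals within pairs left 1025 regions under the rule, 897 of them opened regions.

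Opened regions were weak in untreated cells. Their mean control level had a median of 3.95 CPM and their mean level after lenalidomide a median of 9.49 CPM, against 6.50 and 6.76 CPM in background regions. The medians correspond to 9.17 counts per control library and 26.8 counts per lenalidomide library, so a single region's difference rests on few reads in the control. A count of 0 occurred in 1 or more controls in 250 opened regions, and the share of background regions with one was not counted. No lenalidomide library had a count of 0 there, which follows from the rise required in each pair. The level minimum of 3 CPM over the 12 libraries was met by 740 opened regions in the controls alone and by the other 435 only with the lenalidomide libraries, which favours regions that rise. Peak calls followed the levels. No control had a called peak in 416 opened regions (35.4%, against 11.4% of background regions), and 179 (15.2%, against 18.7%) had a peak in all 6 lenalidomide libraries. Controls with a peak per opened region had a median of 1 and lenalidomide libraries a median of 4. By line, called peaks rose from 244 to 521 of the opened regions in Karpas620, where the share of background regions with a peak went from 47.3% to 45.4%. They rose from 197 to 536 in KMS27 (background 43.9% to 46.3%), from 421 to 879 in MM1S (54.9% to 59.7%) and from 304 to 784 in OPM2 (41.7% to 42.5%). In L363 they rose from 171 to 766 and in RPMI8226 from 381 to 802, where background peaks also rose, from 31.4% to 42.9% and from 41.1% to 55.6%.

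The levels of the 2 conditions overlapped across lines in most opened regions. Every lenalidomide library lay above every control in 37 of them (3.15%, against 0.0724% of background regions), and in the rest the line with the highest control level overlapped the line with the lowest treated level. The choice therefore rests on pairs within lines. In edgeR's quasi-likelihood test with the cell line as a block, 37732 regions passed its filter on low counts, of which 4.17% were raised and 1.22% lowered at a Benjamini-Hochberg adjusted p below 0.05. Among them were 761 opened regions, of which 706 were raised and 0 lowered, a count that follows from the choice on the same contrast. With the cell line left out of the model 0 regions were raised, opened or other, where 258 opened regions had an unadjusted p below 0.05, and DESeq2 with the block raised 488 opened regions.

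The largest mean change, 2.31, belonged to a region of 493 bp on chromosome 7, within 2.5 kb upstream of the annotated start of the pseudogene PHBP6 (chr7:74617421-74617913), in the duplicated part of 7q11. Controls ran from 0 to 3.82 CPM with a median of 1.71, and lenalidomide libraries from 2.54 to 23.1 CPM with a median of 11.4. A second region with a mean change of 2.07, likewise upstream of PHBP5 (chr7:72604513-72605054), ran from 0 to 5.20 CPM in controls (median 1.62) and from 2.18 to 20.3 CPM after lenalidomide (median 12.1). The groups overlapped at both. The first aligns over 100% of its length at 100% identity to the second, so reads of one copy cannot be told from reads of the other, and the 2 count as 1 observation. In all, 48 opened regions (4.09%) had a second match in GRCh37 over 50% or more of their length at 90% or more identity. Background regions were not searched for such matches, so the 2 shares cannot be compared.

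ST14 encodes matriptase, a membrane serine protease. An opened region in its intron (chr11:130048326-130048963), 18.6 kb from the start, had a mean change of 2.24. Controls ran from 1.01 CPM in KMS27 to 13.8 CPM in L363 with a median of 3.37, and lenalidomide libraries from 3.13 CPM in Karpas620 to 83.5 CPM in L363 with a median of 19.3. L363 was the highest line in both conditions and the groups overlapped. None of the 16 other lines had a called peak there. Their median was 3.61 CPM and the highest, KMS12PE, was at 22.1 CPM.

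ATXN1, a transcriptional regulator known for its polyglutamine repeat, held the widest of the 12 regions, 1091 bp in an intron (chr6:16635873-16636963), with a mean change of 2.21. Controls ran from 0.694 to 19.9 CPM (median 4.59) and lenalidomide libraries from 4.30 to 49.3 CPM (median 43.6). After lenalidomide 5 of the lines lay between 30.1 and 49.3 CPM and Karpas620 at 4.30 CPM, while the controls were spread over the whole range below 20. Of the 16 other lines 9 had a peak, up to 34.7 CPM in LP1.

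BCL2L11 encodes BIM, a BH3-only protein that starts apoptosis. The opened region assigned to it lay in an intron of ACOXL (chr2:111829251-111829694), 47.3 kb upstream of the BCL2L11 start, with a mean change of 2.06. Controls ran from 0 to 1.89 CPM (median 0.434) and lenalidomide libraries from 2.59 to 11.8 CPM (median 4.82), which did not overlap. A peak was called in 3 of the 6 lenalidomide libraries and in no control. The 16 other lines had a median of 0.550 CPM and no called peak, and the highest of them, KMS21BM, was at 3.57 CPM, above 3 of the 6 treated values.

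The other 7 of the 12 were also weak in controls, with medians between 0.491 and 2.91 CPM. An intergenic region 53.5 kb upstream of PICALM, a clathrin adaptor gene, ran from 0.510 to 2.08 CPM in controls and from 3.30 to 31.7 CPM after lenalidomide, with no overlap. A region in an intron of SH3RF2 (chr5:145396321-145397199) ran from 1.35 to 6.52 CPM and from 6.50 to 53.0 CPM, and was the 1 region of the 12 with a peak in all 6 lenalidomide libraries. In ATP10B, a lipid flippase gene, an intronic region ran from 0 to 3.31 CPM and from 3.27 to 29.0 CPM. Both overlapped by the narrowest margin. Near the ubiquitin ligase gene RNF187 a region 54.3 kb downstream of the start differed most among lines, from a change of 0.36 in Karpas620 to 4.93 in OPM2. The region 3.91 kb upstream of TIFAB changed by at least 1.25 in each line, and its controls reached 7.56 CPM in RPMI8226 against 0.347 to 1.72 CPM in the other 5 lines. The regions nearest PJA2, a ubiquitin ligase gene, and TMEM184C, both far from the start of those genes, completed the 12 with mean changes of 2.11 and 2.06.

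**Figure D2:**
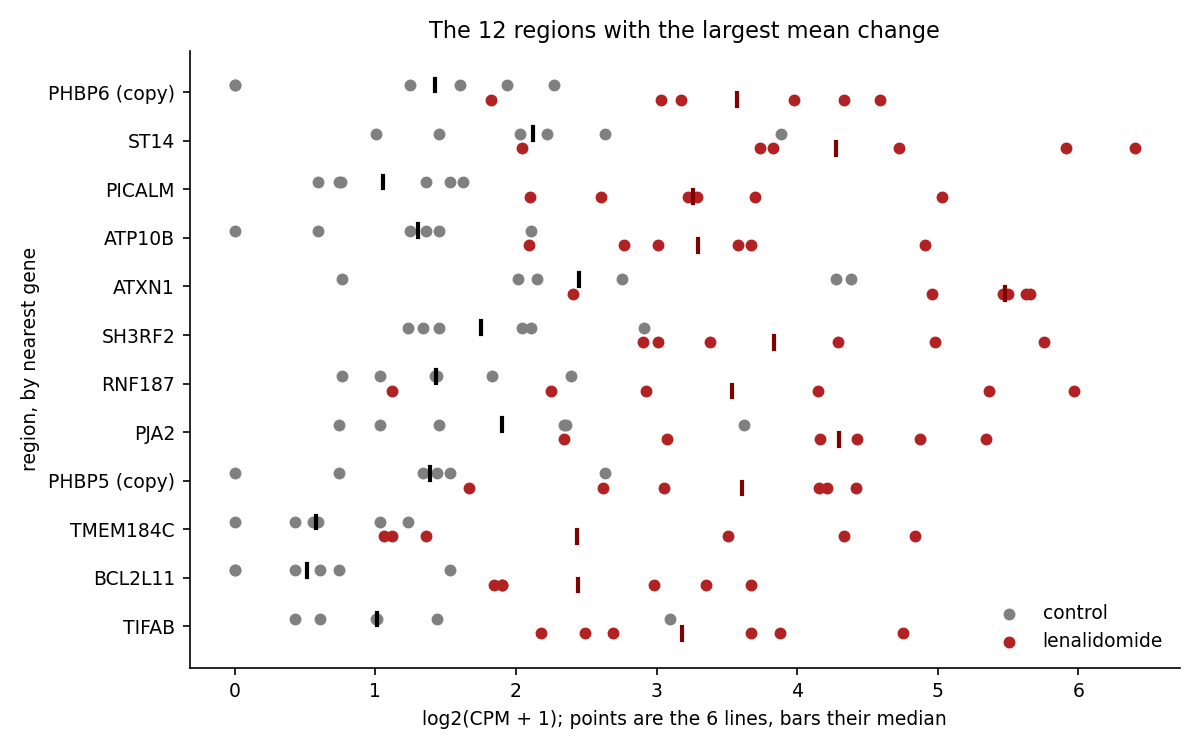
Log2(CPM + 1) (x axis) of the 12 opened regions with the largest mean change (y axis, by nearest gene), with 1 point per line, control in grey and lenalidomide in red, and the median as a bar. Controls sit at or below a median of 4.59 CPM in each region, and the groups part without overlap at PICALM and BCL2L11.

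The opened regions with the highest mean levels were sites already open in most lines before treatment. An NRCAM promoter region (chr7:107851839-107852811), 30.9 kb from the nearest protein-coding transcript start of this neuronal adhesion gene, ran from 16.3 to 115 CPM in controls (median 60.6) and from 47.3 to 194 CPM after lenalidomide (median 122). A CNIH3 intron, nearest to the start of WDR26, ran from 34.7 to 109 CPM (median 59.3) and from 88.9 to 195 CPM (median 111). Both had peaks in all 12 paired libraries. A STEAP1B intronic region was open in all lines but KMS27 and OPM2, where the controls were at 2.36 and 0 CPM, and its highest treated level was 136 CPM in L363. The groups overlapped at all of these. Regions near RGS4 and in KCNN3, a potassium channel gene, had control medians of 23.4 and 39.9 CPM and treated medians of 54.8 and 61.2 CPM. The last of the 6, near NUDT4B, has a near-identical copy elsewhere, so its control and treated medians of 33.4 and 61.9 CPM may combine copies.

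At the limit of 0.7 the choice divides regions with like values. An opened region just inside, nearest PROK2, had a control median of 15.4 CPM and a treated median of 28.8 CPM, and another, in an intron of TMEM273, had 2.45 and 4.34 CPM. The region just outside, near PPP2R2A, had medians of 5.17 and 9.96 CPM. The next outside lay near SLCO2B1 and CRYBA4, and all of these had mean changes that round to 0.70.

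Opened regions were more often distal than background regions. Promoters, meaning regions that overlapped an annotated start or lay within 2.5 kb upstream of one, held 246 of them (20.9%, against 33.4% of background regions), introns 464 (39.5%, against 30.8%), exons 73 (6.21%, against 5.72%) and intergenic DNA 392 (33.4%, against 30.1%). Read the other way, 2.35% of distal and 1.24% of promoter background regions were opened. Of the 246 promoter regions 103 (41.9%, against 23.9% of background promoters) had no protein-coding transcript start within 2.5 kb. They lay at other annotated starts, of noncoding genes or, as at NRCAM, of other transcripts of a coding gene. All 246 promoter regions had a median GC content of 51.6% against 60.6% in background promoters, and a median width of 630 bp against 825 bp. In distal regions the GC content was 48.1% against 46.7% and the width 616 bp against 602 bp. The share of background regions that were opened ran from 1.29% on chromosome 8 to 2.82% on chromosome 15.

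The opened regions were scattered. Joined across gaps of up to 15 kb they formed 1137 groups, of which 1102 were single regions and 3 held 3 or more, near RNF187, at HPX and TRIM3, and in ST3GAL2. At RNF187 the 3 opened regions spanned chr1:228718159-228732600 and were 3 of the 4 background regions there. The neighbours of opened regions differed little from other regions. Background regions within 2 kb of an opened region had a median change of 0.07, with 5.52% above 0 in all 6 lines, against -0.03 and 2.42% for all background regions that were not opened. The 681 protein-coding genes nearest to distal opened regions within 100 kb were followed to their promoters. Of these, 528 had a promoter region at the level minimum, with a median change of -0.01, where the promoters of all 11764 genes had -0.03. The promoter rose in all 6 lines in 4.55% of the 528 and in 3.52% of all genes, and 6 of the 528 promoter regions were themselves opened.

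Few genes gathered several opened regions. By nearest protein-coding start, with no limit on distance, 1036 genes had at least 1 and 16 had 3 or more. KCNN3 had 4 of 13 background regions opened, NRCAM 4 of 18, FAM174B 4 of 18, UBE2E1 (a ubiquitin-conjugating enzyme gene) 4 of 24 and SETBP1 (a SET-binding protein gene) 4 of 27. RGS3, a regulator of G protein signalling, had 3 of 14, RNF187 3 of 34 and TBL1XR1 (a corepressor subunit gene) 3 of 55. In NRCAM the median change over all 18 background regions was 0.33, in SETBP1 0.17 and in KCNN3 0.17. For UBE2E1 and TBL1XR1 it was -0.03 and 0.01, so most regions assigned to these genes did not share the rise. When starts of every gene type were used, LINC00511, SLC12A3 and ST3GAL2 also had 3 each.

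The other 16 lines give the untreated state of the opened regions in lines that took no part in their choice. A called peak was found in at least 1 of the 16 lines in 956 opened regions (81.4%, against 92.9% of background regions), in 8 or more lines in 231 (19.7%, against 41.1%) and in all 16 in 14 (1.19%, against 11.2%). No line had a peak in 219 (18.6%, against 7.05%). The median level of the opened regions ran from 1.86 CPM in PCM6 to 5.37 CPM in KMS20, where background regions ran from 5.05 to 6.96 CPM over the 16 lines. In the 6 controls the corresponding medians ran from 1.35 CPM in KMS27 to 5.19 CPM in RPMI8226, and after lenalidomide from 4.79 CPM in KMS27 to 12.2 CPM in OPM2. The untreated medians of the 16 lines thus overlapped the range of the controls. The median over the 16 lines reached a region's mean treated level in 17 opened regions (1.45%, against 32.3% of background regions). The highest of the 16 lines did so in 826 (70.3%), which is below the 95.2% of background regions that pass this lenient comparison of a maximum with a mean.

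**Figure D3:**
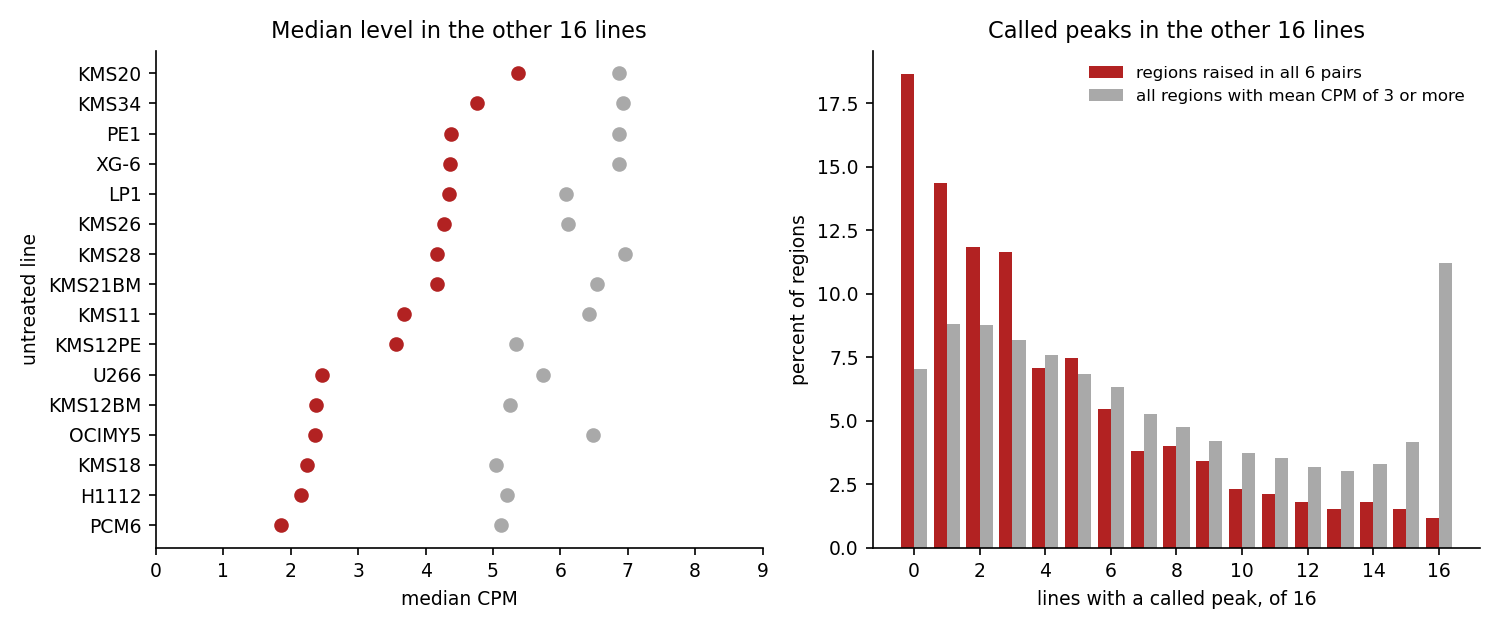
Left, the median CPM (x axis) of opened regions (red) and background regions (grey) in each of the 16 untreated lines outside the pairs (y axis). Right, the percent of regions (y axis) by the number of these lines with a called peak (x axis). Opened regions have a lower median in each line, and 18.6% of them, against 7.05% of background regions, have no peak in any.

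KMS20 stood out among the 16. It had a peak in 619 opened regions (52.7%, against 60.9% of background regions) and was the highest of the 16 lines in 149 (12.7%, against 5.22%). PE1 was the highest in 140 (11.9%, against 8.53%) and LP1 in 116 (9.87%, against 5.80%). At the other end KMS18 was the highest in 17 (1.45%, against 6.67%). KMS20 had one of the deepest libraries, 4653969 counts, and PE1 the shallowest, 1599857, and the part of depth was not tested.

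The opened regions most accessible in the 16 lines included 4 of the 6 with the highest levels in the pairs. The RGS4 region had a median of 50.1 CPM over the 16 lines, the STEAP1B region 48.5 CPM, the NRCAM promoter 44.5 CPM and the WDR26 region 37.3 CPM. A region 47.2 kb from the start of SNX9, a sorting nexin gene, had 38.6 CPM and one near QPCT 37.3 CPM. At the other extreme, the regions near ZFYVE19, DAZL and BAMBI and at the TMEM51 start had medians of 0.244 to 0.487 CPM and no peak in any of the 16. The treated medians of these 4 were 1.39 to 4.41 CPM.

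Short sequence patterns differed in frequency between distal opened regions and all distal background regions. In the central 200 bases, the MEF2 motif was found in 32 of 929 distal opened regions (3.44%, against 1.38% of 39558 distal background regions). The ETS-IRF composite was found in 52 (5.60%, against 2.64%), the RUNX core in 190 (20.5%, against 10.8%) and the kappa B motif in 113 (12.2%, against 6.87%). The Ikaros core was found in 242 (26.0%, against 15.5%), the ETS pattern GGAAGT of the kind bound by PU.1 in 225 (24.2%, against 16%) and the E-box CAGCTG in 238 (25.6%, against 17.1%). The CTCF core (CCAC, 1 base, AG, 2 bases, GG) was rarer, in 18 (1.94%, against 5.99%), as was the promoter-type ETS core CCGGAA, in 30 (3.23%, against 3.81%), although over the whole region that core was more frequent (10.4%, against 9.48%). The AP-1 pattern TGANTCA was found in 120 (12.9%, against 10.8%). At least 1 of the Ikaros, RUNX, ETS-IRF and MEF2 patterns was present in 427 (46.0%, against 27.7%) and 2 or more in 86 (9.26%, against 2.54%). Similar shares were found over all 1916 distal background regions with a mean change of 0.7 or more, which include the 929. There the Ikaros core was found in 24.9%, the RUNX core in 20.3%, the ETS-IRF composite in 5.01% and the MEF2 motif in 3.24%. The patterns are thus not shown to be particular to regions raised in all 6 lines. A match is a run of letters, not a bound site.

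The remaining patterns searched, on both strands, were the MAF site TGCTGAC, the STAT pattern TTCNNNGAA, the octamer ATGCAAAT, the GATA pattern AGATAA, the SP/KLF box GGGCGG, the E-boxes CAGGTG and CACGTG, the CRE TGACGTCA, the IRF pair (GAAA, 2 bases, GAAA) and the EBF palindrome (TCCC, 2 bases, GGGA). The MAF site was found in 7.53% against 5.0% and the IRF pair in 10.9% against 8.18%, the EBF palindrome in 0.969% against 0.495% and the SP/KLF box in 8.40% against 8.30%. Of the 20 patterns 14 had a higher share in distal opened regions, and 16 kept their side in windows of 400 bases and of the whole region. Some patterns can overlap, as the ETS-IRF composite with GGAAGT and the Ikaros core with the kappa B motif. The Ikaros and RUNX cores occurred together in 51 distal opened regions (5.49%, against 1.56%), in 50 of them without overlap. The Ikaros core and the ETS-IRF composite occurred together in 20 (2.15%, against 0.483%), in 17 without overlap.

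Among the 246 promoter opened regions the contrast with background promoters was of the same kind. The ETS-IRF composite was found in 16 (6.50%, against 0.976%), the IRF pair in 29 (11.8%, against 3.51%), the RUNX core in 27 (11%, against 3.99%) and the Ikaros core in 58 (23.6%, against 14.2%). The SP/KLF box, a feature of GC-rich promoters, was found in 46 (18.7%, against 43.5%), beside the lower GC content given above.

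Across all distal background regions the shares varied with the mean change, the value by which the opened regions were chosen. The 1916 regions at 0.7 or more hold all 929 distal opened regions, so their shares are no separate support. The Ikaros core was found in 8.08% of regions with a mean change of -0.7 or less, in 13.7% between -0.35 and 0, in 16.9% between 0 and 0.35, in 20.5% between 0.35 and 0.7 and in 24.9% at 0.7 or more. The kappa B motif rose in the same order from 1.73% to 11.9%. RUNX, ETS-IRF and MEF2 patterns were more frequent at both ends than in the middle, with 11.4%, 3.03% and 1.73% at -0.7 or less, 9.46%, 2.26% and 0.992% between -0.35 and 0, and 20.3%, 5.01% and 3.24% at 0.7 or more. The AP-1 pattern was most frequent at the lower end, 16.5% against 12.6% at the upper. CTCF cores were concentrated in regions with little change, at 7.22% between 0 and 0.35.

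**Figure D4:**
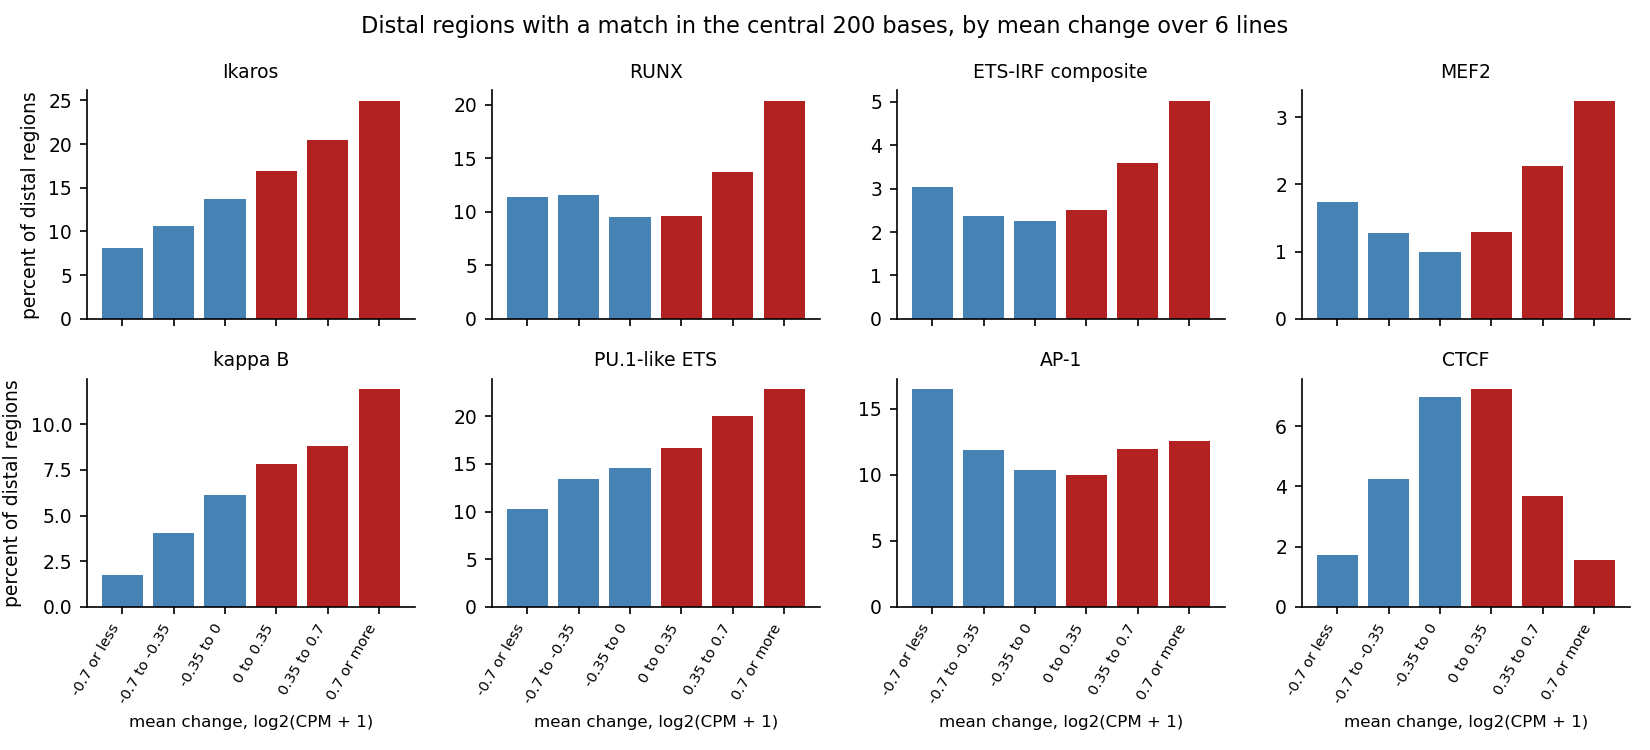
Percent of distal background regions (y axis) with a match to each pattern in the central 200 bases, by mean lenalidomide minus control difference over 6 lines (x axis, log2(CPM + 1)), blue below 0 and red above. The Ikaros share climbs from 8.08% to 24.9%, and the CTCF share peaks near no change.

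The matches also differed in where they lay. RUNX cores in distal opened regions reached 6.89 matches per 100 regions per 50 bases in the central 100 bases and 1.10 at 400 to 500 bases from the centre, against 3.36 and 1.10 in distal background regions. ETS-IRF composites reached 2.05 and 0.161, against 0.801 and 0.128, and MEF2 motifs 1.02 and 0.188, against 0.379 and 0.138. All 3 were most frequent in the central 100 bases, and an excess was also seen in bins farther out, where the counts were small. In the bin 225 bases from the centre towards higher coordinates, ETS-IRF composites were at 0.646 (6 matches) against 0.197. In the bin at -225 bases MEF2 motifs were at 0.538 (5 matches) against 0.164 and RUNX cores at 2.48 against 1.41. The Ikaros core was spread more evenly, at 7.21 in the centre and 5.68 at 400 to 500 bases, against 4.24 and 4.70.

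**Figure D5:**
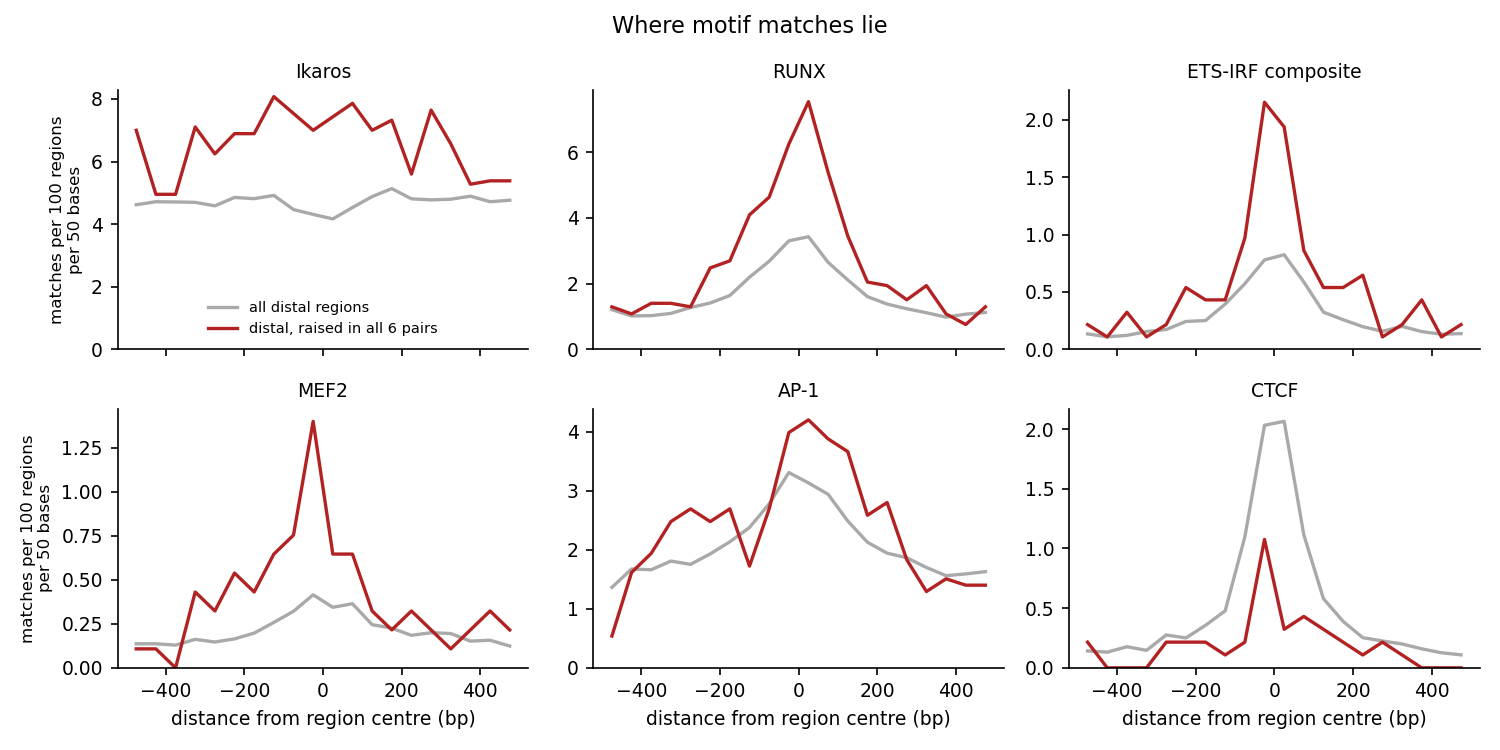
Matches per 100 regions per 50 bases (y axis) by distance from the region centre (x axis, bp), for distal opened regions (red) and all distal background regions (grey). RUNX, ETS-IRF and MEF2 matches peak at the centre of opened regions, whereas the Ikaros core lies above background across the window.

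Each region was assigned to the protein-coding gene with the nearest start within 100 kb, and 970 of 47198 such background regions were opened (2.06%). In the same regions edgeR raised 1274 and lowered 349 of 31833 tested. The lists below are described by their counts beside these values.

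Genes of the drug's own target family included IKZF1, which encodes Ikaros. Of 36 background regions assigned to 14 genes of the Ikaros family and the cereblon ligase, 2 were opened, both at IKZF1. The region at the start (chr7:50348041-50348699) ran from 11.3 to 24.5 CPM in controls (median 15.1) and from 16 to 55.8 CPM after lenalidomide (median 29.6), with a called peak in 0 of 6 controls and in all 6 treated libraries. Its changes ran from 0.08 in RPMI8226 to 1.31 in L363, and the groups overlapped. The second, 3.46 kb upstream, had medians of 1.72 and 5.22 CPM. By edgeR 1 region of the list was raised and 1 lowered of 24 tested.

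Interferon-stimulated genes had 7 of 123 background regions opened (5.69%), at GBP4, IFI6, PARP9, RIGI, SAMD9L, USP18 and XAF1, and the median change of all 123 was 0.13. Of 92 tested, 14 were raised (15.2%) and 2 lowered. The start of RIGI, which encodes a sensor of viral RNA, ran from 11.8 to 20.9 CPM in controls (median 15) and from 20.5 to 51.9 CPM after lenalidomide (median 44.4), with the lowest treated line barely within the control range and a peak in all 6 controls. GBP4, a guanylate-binding protein gene, had medians of 3.36 and 12.9 CPM at its start. The SAMD9L region lay 8.43 kb upstream, with medians of 1.64 and 5.80 CPM and no overlap between groups. Interferon regulatory factors contributed 1 of 46 regions, at IRF2, with medians of 8.05 and 20.1 CPM. The deposited annotation places it in an exon, and it overlaps a protein-coding IRF2 transcript start of GENCODE v44lift37.

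Antigen presentation genes had 7 of 81 regions opened (8.64%), among them regions at CIITA, CD74, ERAP2, HLA-DMA, HLA-DQB1 and HLA-DRA, with a median change of 0.18 over the 81. Of 69 tested, 5 were raised and 0 lowered. CIITA is the master regulator of MHC class II genes, and a promoter region of a noncoding gene 22.7 kb upstream of its start went from a control median of 10.5 CPM to 24.4 CPM. The HLA-DMA start, a class II chaperone gene, ran from 4.72 to 18.4 CPM (median 12.3) and from 9.42 to 27.7 CPM (median 25.2), with overlap. The CD74 intron, 2.72 kb from the start of the invariant chain gene, had medians of 2.08 and 4.60 CPM and no called peak in any of the 12 libraries. HLA genes are alike in sequence, and reads may have been split between them.

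Cytokines, chemokines and their receptors had 13 of 214 regions opened (6.07%), and 15 raised and 2 lowered of 146 tested. A region 15.3 kb upstream of IL10RA, the interleukin 10 receptor gene, had medians of 2.63 and 7.53 CPM, and one near SOCS3, a feedback inhibitor of cytokine signalling, 0.598 and 3.39 CPM. The groups overlapped at both. Others lay nearest CCR1, CCR6, CXCR5, IL16, IL2RA, IL4R, IL6R, IL6ST and TGFBR2.

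Plasma cell identity genes had 2 of 197 regions opened (1.02%), with 2 raised and 6 lowered of 153 tested. NF-kB pathway genes had the same share, 1 of 98 (1.02%). An exonic region in POU2AF1, an octamer coactivator gene, had the most even response of the named regions, from 1.02 to 1.31 over the 6 lines, with medians of 2.90 and 7.32 CPM. A region 55.5 kb from the start of TNFRSF13B, the TACI receptor gene, had medians of 10.5 and 22.2 CPM. SLAM and Fc receptor-like genes had 1 of 62 opened, upstream of SLAMF1, with 1 raised and 2 lowered of 42 tested.

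B cell program genes had 5 of 165 opened, with 6 raised and 3 lowered of 102 tested, and RUNX, ETS and other lymphoid transcription factor genes 9 of 354, with 12 raised and 6 lowered of 239. A region 5.97 kb upstream of ETS1 ran from 0.337 to 4.72 CPM in controls (median 1.48) and from 3.08 to 19.9 CPM after lenalidomide (median 6.72), with overlap, and held a MEF2 motif. T and NK cell genes had 5 of 149 opened, with 7 raised and 0 lowered of 90. One of them, 72.7 kb from the start of GATA3, had medians of 4.92 and 27.5 CPM and a peak in all 6 treated libraries, and an exonic region of CD2 had medians of 3.87 and 10.1 CPM.

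AP-1 and BATF family genes had 4 of 97 opened, with 4 raised and 1 lowered of 74 tested. The start of BATF2, an interferon-inducible family member, had medians of 3.44 and 10.9 CPM, an intron of the repressor gene BACH1 6.75 and 19.6 CPM, and a region near MAFG, a small MAF gene, 2.56 and 7.20 CPM. NF-kB pathway genes had 1 of 98 opened, 11.3 kb upstream of the inhibitor gene NFKBIA, with medians of 3.10 and 8.31 CPM, and 2 raised and 0 lowered of 67.

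Cell cycle and apoptosis genes had 7 of 177 opened, with 10 raised and 5 lowered of 137 tested. Besides BCL2L11 these lay at CASP8, CCND1, CCND3, CDKN1A and E2F2. An exonic region of CCND3, a D-type cyclin gene, had medians of 8.10 and 21.6 CPM with changes from 0.73 to 1.89, and a CASP10 exon nearest CASP8, an initiator caspase gene, 3.25 and 9.37 CPM. Adhesion and migration genes had 6 of 142 opened, with 7 raised and 3 lowered of 92. An ITGB3 intron had medians of 8.37 and 17.8 CPM and peaks in all 6 treated libraries, a region 18.6 kb upstream of ITGA6 1.47 and 6.12 CPM, and one near S1PR1, a sphingosine phosphate receptor gene, 2.51 and 6.16 CPM with no overlap. Myeloid genes had 2 of 55 opened, with 1 raised and 0 lowered of 34, and the ITGAM exon had medians of 6.14 and 17.3 CPM. The FCGR3A region has a near-identical copy and is uncertain.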

How the data were processed

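ATAC-seq libraries of 50000 sorted viable cells from 22 myeloma lines were analysed, 28 libraries in all. Per the study's methods and the submitters' processing notes, the authors aligned reads to GRCh37 with Bowtie2 2.2.6, used SAMtools 1.7 and called peaks in each library with MACS2 2.1.0.20151222 at a q of 0.01. Removal of duplicates, shifting of read ends for the transposase and counting of reads or fragments are not given in the sources used here. Peaks were merged into 154985 regions. The authors deposited raw counts per region, RPM values, which equal CPM over these regions, and a table of whole numbers that was read as called peaks per library. A table of peak positions was not used.

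The opened regions and the gene lists were chosen with earlier results of these data known. Levels were scaled to column totals, and differences are on the log2(CPM + 1) scale with a pseudocount of 1, which understates changes of weak regions. Each treated library was paired with the untreated library of the same cell line. The test used edgeR 4.0.16 (R 4.3.3, limma 3.58.1) on the counts with TMM, filterByExpr, the cell line as a block and Benjamini-Hochberg adjustment. It was tried on simulated data with the same change in every line. Those data leave out differences in response between lines, so they do not give the error rate here. With this block, p-values set the mean difference against its spread over the lines, in which library and counting error are included. DESeq2 1.42.0, TMM scaling, other limits, other pseudocounts, equal totals within pairs, no block and each line left out were tried, and removal of trends on GC content or level was added after the data were seen.

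Places came from the deposited annotation, protein-coding transcript starts and host genes from GENCODE v44lift37, whose nearest start gave a region its gene. Named regions were the 12 with the largest mean change, the 6 highest in mean CPM, the 6 highest and 4 lowest over the other 16 lines, those at the limit (3 on each side), genes with 3 or more (up to 8 genes) and up to 3 per gene list. Second matches were sought with minimap2 2.31-r1302. Some regions that this rule names are not reported here.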

Additional observations from a re-analysis of the deposited data

Results flagged for a closer look

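Of 41 sets of 6 values screened (control level, treated level and change of the 12 regions with the largest mean change, and medians by line), 7 held 1 value far from the other 5, where chance flags about 1 in 20. In the controls, L363 stood high at the ST14 region with 13.8 CPM, Karpas620 at the PHBP5 region (nearest protein-coding gene SPDYE10) with 5.20 CPM, and RPMI8226 at the PJA2, BCL2L11 and TIFAB regions with 11.3, 1.89 and 7.56 CPM. After lenalidomide, OPM2 stood high at the PICALM region with 31.7 CPM and L363 at the ATP10B region with 29.0 CPM.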

How the results depend on the processing

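The number of regions kept by the rule depends on its limits: a minimum mean difference of 0.5 kept 1794 and of 1 kept 538. Leaving out 1 line gave 1250 to 1967 regions, the most without RPMI8226, whose treated library is the deepest of the 12. The other settings kept 815 to 1621, and 897 to 1175 of the opened regions except under a minimum mean CPM of 5 (815). The share at a promoter was 15.1% when the region centre had to lie within 1 kb of a start (30.5% of background regions), and 18.5% to 21.9% without 1 line. The share open in another line was 99.7% when 2 CPM in 1 of the 16 lines counted as open, a level that nearly all background regions reach, and 77.9% to 83.1% without 1 line. edgeR raised 3608 regions with no filter on low counts and DESeq2 722, against 1575. Without the pairing block it raised 0 regions and 0 opened regions, with 401 and 258 at an unadjusted p below 0.05. Leaving out 1 line gave 875 to 1919 raised regions and 508 to 692 opened ones, the fewest without MM1S, and 1036 without KMS27. No median in a left-out line turned in sign under TMM scaling, with 0.17 to 0.96 over the 6 lines. Of the shares of single motifs in wider windows and the counts of gene lists within 10 kb, 50 moved, as such windows hold more matches and such distances fewer regions, and 6 did not. Within 10 kb, 1.59% of the regions of all protein-coding genes were opened. The shares of adhesion and migration (1.23%), B cell program (1.27%) and lymphoid transcription factor genes (1.37%) were below this. Within 100 kb these lists were above the share of all genes, 2.06%. The other lists kept their side, with 8.43% for interferon-stimulated genes. Depth limits single regions: the mean count of an opened region in the control libraries has a median of 9.17, and no repeat library of a line measures error within it.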
